A study of Mus musculus with 18 samples.

Results

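The genes described here are the enzymes and pumps with which cells alter and expel foreign compounds: cytochromes P450, aldehyde dehydrogenases, glucuronosyltransferases, sulfotransferases, glutathione transferases and ABC transporters. They were taken by gene name (Cyp with a digit but not Cyp51, Aldh, Ugt1, Ugt2, Sult, Gst, Mgst, Abcb, Abcc and Abcg) from the protein-coding genes of the deposited table, and numbered 78 of the 10897 genes it holds. There were 19 P450 genes, 17 aldehyde dehydrogenases, 5 glucuronosyltransferases, 5 sulfotransferases, 22 glutathione transferases and 10 ABC transporters. These 78 genes are called the members below. The name rule also takes in enzymes whose known substrates are the body's own, such as Aldh7a1 (lysine breakdown), Aldh18a1 (proline synthesis), Aldh1l1 (folate) and Cyp27a1 and Cyp39a1 (sterols).

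RNA from colorectal tissue of male C57BL/6J mice aged 10 weeks was sequenced in 18 libraries, with 6 in each of 3 groups. GF-AOMS mice were germ-free, had colorectal cancer induced by the carcinogen azoxymethane (AOM), and were also exposed to cigarette smoke. GF-AOM mice were germ-free with AOM-induced cancer and no smoke. Control mice were wild type and specific pathogen-free (SPF) with AOM-induced cancer according to the sample characteristics, whereas the treatment protocol calls them normal controls, and the growth protocol houses all mice in an SPF facility. Depending on which labels hold, either GF group differs from Control by germ-free status, by AOM or by both together (GF-AOMS by smoke as well). If Control mice had AOM and all mice were SPF, the GF groups differ from Control by neither of these. The labels do not settle which reading holds. Smoke sets GF-AOMS apart from GF-AOM on every reading. The labels count 6 mice per group without tying libraries to mice, so p-values here reflect variation among libraries, which may be partly technical.

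As background, drug and toxin metabolism is described in phases. Phase I enzymes, mainly P450s and aldehyde dehydrogenases, oxidize a compound; phase II transferases attach glucuronic acid, sulfate or glutathione; ABC pumps then export the product or the unchanged compound. In the intestine these proteins sit mostly in the absorptive epithelium, and the receptors PXR, CAR, AHR and the factor NRF2 are known inducers of many of their genes.

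The libraries held about 48954000 to 79234000 counts. The Control group was not uniform: Hoxa13, a gene of the distal colon, reached 3.05 CPM at most in Control replicates 3 to 6, against 24.7 to 53.5 CPM in every other library (CPM are counts scaled to a common library total with TMM factors). The members together made up 0.302 to 0.633% of all counts in GF-AOMS libraries and 0.395 to 0.626% in GF-AOM libraries. In Control they made up 0.581% and 0.435% in replicates 1 and 2, and 0.880 to 1.36% in replicates 3 to 6. Ribosomal protein genes took a median of 11.5% of counts in GF-AOMS and 15.9% in GF-AOM, against 6.98% in Control (5.20 to 26.2% over all libraries). Mitochondrial genes took medians of 3.07% and 3.06%, against 4.52% in Control. The part of these shares in the members' differences from Control was not tested. A total of 5 libraries had a TMM factor under 0.9 (GF-AOMS replicates 1 and 2, GF-AOM replicates 3 and 6, Control replicate 2). In bulk tissue, fewer cells of a type and less RNA per cell cannot be told apart.

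Levels among the members spanned from a mean of 1.58 FPKM (fragments per kilobase of transcript, scaled by depth) for Abcg3 to 272 FPKM for the microsomal glutathione transferase Mgst3, averaged over the 18 libraries. Cyp2c55, a P450 of the mouse colon that oxidizes arachidonic acid, was next at 270.6 FPKM. Gsto1, Gstp1, Gstm1, Sult1a1 and Sult1d1 followed at 141.7, 136.0, 126.1, 102.3 and 100.2 FPKM. The highest aldehyde dehydrogenase was mitochondrial Aldh1b1 at 86.2 FPKM, the highest glucuronosyltransferase Ugt2b34 at 72.4 FPKM, and the highest ABC transporters Abcb1a and Abcc3 at 21.7 and 21.2 FPKM. Every gene in the table reached 1 FPKM in at least 15 libraries, so family members expressed in few of these libraries are not analysed here.

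GF-AOMS was compared with Control for smoke, alone or combined with germ-free status, AOM or both, depending on the reading. 5 members fell: Cyp2c55, Cyp4b1, Gstk1, Abcb1a and Aldh7a1, and none rose. Across all genes 0.734% were called (0.624% lower and 0.11% higher), with edgeR's quasi-likelihood test and a Benjamini-Hochberg adjusted p under 0.05 over the 10897 genes. At an unadjusted p under 0.05 there were 35 members, all lower, against 16.2% of all genes (9.25% lower and 6.93% higher). DESeq2 called 19 members, all lower, against 3.44% of all genes (2.63% lower and 0.808% higher). The members' median log2 difference was -0.32, with 62 of 78 below 0, against a median of 0.01 and 49% below 0 over all genes. Leaving out single libraries changed the number of members called. Dropping Control replicate 2 gave 21 (4.52% of all genes were called in the same fit), Control replicate 1 gave 9 (0.89%) and Control replicate 5 gave 2 (0.147%). Without any of Control replicates 3, 4 and 6 or GF-AOMS replicates 2, 4, 5 and 6, 0 members and 0% of all genes were called. Without GF-AOMS replicate 1, 0 members and 0.0184% of all genes were called. Dropping GF-AOM replicates, which enter the shared estimate of spread, gave 2 to 4 (0.284 to 0.56%), and dropping GF-AOMS replicate 3 gave 3 (0.468%).

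Cyp2c55 (ENSMUSG00000025002, chromosome 19, 39007019 to 39042693, plus strand) showed the largest difference of any member. It lay at 198.9, 130.1, 125.6, 101.2, 27.8 and 77.7 CPM in GF-AOMS replicates 1 to 6, and at 193.4, 170.9, 227.9, 431.6, 72.1 and 283.9 CPM in GF-AOM replicates 1 to 6. In Control it lay at 300.7 and 146.9 CPM in replicates 1 and 2 and at 1958, 3224, 929.1 and 2214 CPM in replicates 3 to 6. Control replicates 3 to 6 thus stood above every other library, Control replicate 1 stayed within the GF-AOM range, and Control replicate 2 within the range of both GF groups. The log2 difference of GF-AOMS from Control was -3.73 (SE 0.67, edgeR adjusted p = 0.0304), and that of GF-AOM from Control was -2.67 (SE 0.63, adjusted p = 0.0897), which did not pass. Cyp2c55 also stands on the list of proximal colon genes used here, which was chosen with earlier results of these data known. Among the 3 measured genes of that list, Car1 showed the same split within Control, whereas Fabp2 did not. Fabp2 was 381.2 CPM for Control replicate 1 and 365.5 CPM for replicate 2. Over Control replicates 3 to 6 it spanned 336.7 to 935.5 CPM, and GF-AOM replicate 3 reached 721.7 CPM.

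The neighbouring Cyp2c65 (chromosome 19, 39061015 to 39093944, plus strand), of the same P450 subfamily, ran in the same way without passing the test. It lay at 21.9, 39.7 and 71.4 CPM (lowest, median and highest, as wherever 3 values of a group are given) in GF-AOMS and at 13.5, 42.9 and 110.8 CPM in GF-AOM. Control replicates 1 and 2 were at 73.4 and 19.4 CPM and replicates 3 to 6 at 241.7 to 398.3 CPM. Its log2 differences from Control were -2.39 (SE 0.58, edgeR adjusted p = 0.0654) in GF-AOMS and -2.06 (SE 0.57, adjusted p = 0.123) in GF-AOM. Of its transcript, 20.6% of 50-base words also occur in transcripts of other genes, chiefly Cyp2c66, so its counts can hold reads of that copy; for Cyp2c55 the share was 0.514%.

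Cyp4b1 (ENSMUSG00000028713, chromosome 4, 115624725 to 115647723, minus strand), a P450 known for turning some plant toxins into reactive products, lay at 2.20, 3.65 and 5.16 CPM in GF-AOMS. GF-AOM libraries lay at 2.66, 4.39 and 5.98 CPM. Control replicates 1 and 2 were at 3.97 and 2.20 CPM, both inside the GF-AOMS range and the second of them below that of GF-AOM. Control replicates 3 to 6 were at 8.59 to 40.9 CPM, above both GF ranges. The log2 difference was -2.44 (SE 0.55, edgeR adjusted p = 0.0495) for GF-AOMS and -2.18 (SE 0.55, adjusted p = 0.0987) for GF-AOM.

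Cyp3a13 (ENSMUSG00000029727, chromosome 5, 137892932 to 137921619, minus strand), a member of the subfamily that oxidizes many drugs, did not pass. It lay at 21.3, 31.5 and 45.8 CPM in GF-AOMS, at 26.1, 36.6 and 65.1 CPM in GF-AOM, and at 44.8, 69.7 and 160.1 CPM in Control. The groups overlapped, and the log2 differences from Control were -1.30 (SE 0.31, edgeR adjusted p = 0.0625) in GF-AOMS and -1.05 (SE 0.31, adjusted p = 0.146) in GF-AOM. Cyp4f40, of a subfamily of fatty acid hydroxylases, gave -1.41 (SE 0.36, adjusted p = 0.0799) and -1.55 (SE 0.36, adjusted p = 0.0891) in GF-AOMS and GF-AOM.

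**Figure D1:**
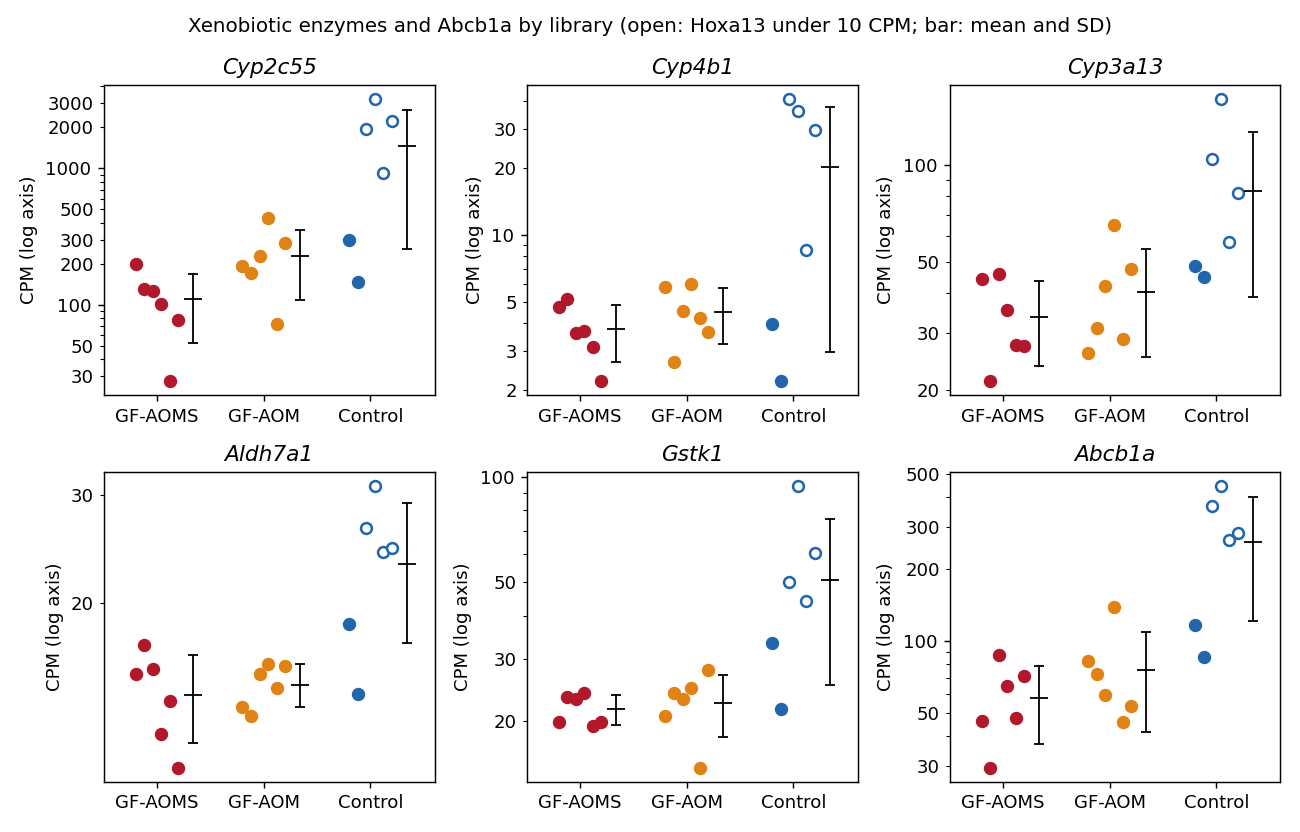
CPM on a log axis for 6 members in each of the 18 libraries, by group, with the mean and SD (n = 6) drawn beside each group as a bar; open circles are Control replicates 3 to 6, whose Hoxa13 lay under 10 CPM. In each panel the open circles lie above the filled circles of Control, which lie in or near the range of the GF libraries.

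Among the P450s as a family, 10 of 19 had an unadjusted p under 0.05 against Control in GF-AOMS and 11 of 19 in GF-AOM, all of them lower, against 9.25% and 9.74% of all genes lower at that threshold. Their median log2 difference was -0.53 in GF-AOMS and -0.59 in GF-AOM. Summed over the family, P450 transcripts came to 145.0 to 290.9 FPKM in GF-AOMS, 165.0 to 437.7 FPKM in GF-AOM and 196.0 to 1917 FPKM in Control. Cyp2c55 had the highest mean of the family in each group, at 46.3 FPKM in GF-AOMS, 98.5 FPKM in GF-AOM and 666.9 FPKM in Control. The sterol hydroxylase Cyp27a1 gave values near 0, at -0.21 (SE 0.26) in GF-AOMS and 0.00 (SE 0.26) in GF-AOM.

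In the aldehyde dehydrogenases, Aldh7a1 (ENSMUSG00000053644, chromosome 18, 56509687 to 56572951, minus strand) was called at a modest size. It lay at 10.8, 14.6 and 17.1 CPM in GF-AOMS, at 13.1, 14.9 and 15.9 CPM in GF-AOM, and at 14.2, 24.4 and 31.0 CPM in Control. Its log2 differences were -0.71 (SE 0.16, edgeR adjusted p = 0.0495) for GF-AOMS and -0.65 (SE 0.16, adjusted p = 0.0987) for GF-AOM. Aldh1b1, a mitochondrial enzyme that oxidizes acetaldehyde, gave -0.66 (SE 0.20) and -0.80 (SE 0.20) in GF-AOMS and GF-AOM without passing, and its relative Aldh2 gave -0.35 (SE 0.18) and -0.52 (SE 0.18). Aldh1a1, which makes retinoic acid and was picked after its values were seen, lay at 37.1, 56.7 and 71.7 CPM in GF-AOMS libraries and at 40.5, 50.4 and 105 CPM in those of GF-AOM. In Control it was at 61.9 and 34.4 CPM in replicates 1 and 2, inside the GF-AOM range or below it, and at 176 to 412.1 CPM in replicates 3 to 6. The family median was -0.23 in GF-AOMS and -0.32 in GF-AOM against Control.

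Of the phase II enzymes, Gstk1 (ENSMUSG00000029864, chromosome 6, 42245935 to 42250441, plus strand), the kappa-class glutathione transferase of mitochondria and peroxisomes, was the one that passed. It lay at 19.3, 21.5 and 23.9 CPM in GF-AOMS, at 14.7, 23.5 and 27.9 CPM in GF-AOM, and at 33.4, 21.6, 49.8, 94.1, 43.9 and 60.5 CPM in Control replicates 1 to 6. Every Control library except replicate 2 lay above both GF ranges. The log2 difference was -1.23 (SE 0.25, edgeR adjusted p = 0.0393) for GF-AOMS and -1.17 (SE 0.25, adjusted p = 0.0792) for GF-AOM. The pi-class Gstp2 gave -0.69 (SE 0.16, adjusted p = 0.0599) and -0.78 (SE 0.16, adjusted p = 0.0792) in GF-AOMS and GF-AOM, and 72.6% of its 50-base words occur elsewhere, chiefly in Gstp1. The 22 glutathione transferases as a whole lay closer to 0, at medians of -0.12 in GF-AOMS and -0.25 in GF-AOM, and the most abundant of them, Mgst3, gave -0.17 (SE 0.17) and -0.28 (SE 0.17).

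Glucuronosyltransferases and sulfotransferases had the lowest family medians, and none of their 10 members passed edgeR's test against Control. At an unadjusted p under 0.05, 4 Ugt and 3 Sult genes were lower in each comparison, against 9.25% of all genes in GF-AOMS and 9.74% in GF-AOM. DESeq2 called 2 of each family lower in GF-AOMS (2.63% of all genes) and 2 Ugt and 0 Sult genes in GF-AOM (1.97%). The 5 Ugt genes had medians of -0.96 in GF-AOMS and -0.86 in GF-AOM, and the 5 Sult genes -1.17 and -0.95. Ugt2b34 lay at 177.2, 298.5 and 376 CPM in GF-AOMS, at 251.3, 321.1 and 357.7 CPM in GF-AOM and at 363.4, 455.4 and 568.9 CPM in Control; its log2 differences were -0.65 (SE 0.16, edgeR adjusted p = 0.071) and -0.54 (SE 0.16, adjusted p = 0.153). Ugt1a7c lay at 50.5 to 213.6 CPM in GF-AOMS, 118.6 to 184.9 CPM in GF-AOM and 185.2 to 382.4 CPM in Control. In GF-AOM these 2 genes lay below every Control library, the only members without overlap there, against 0.459% of all genes; in GF-AOMS no member did, against 0.541%. Transcripts of the Ugt1 locus share their later exons, and 69.3% of Ugt1a7c's 50-base words, 58.2% of Ugt1a1's and 100% of Ugt1a6a's occur in other transcripts, so the counts of these genes are uncertain.

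Sult1d1, a mouse sulfotransferase of catecholamines, lay at 123.8, 188.5 and 266.6 CPM in GF-AOMS, at 112.8, 205.8 and 362.7 CPM in GF-AOM and at 207.7, 376.4 and 874 CPM in Control. The ranges overlapped. Its log2 differences were -1.24 (SE 0.34, edgeR adjusted p = 0.0955) and -1.004 (SE 0.33, adjusted p = 0.196) in GF-AOMS and GF-AOM. Sult1a1, the phenol sulfotransferase, gave -1.17 (SE 0.39) and -0.95 (SE 0.39) without passing, and all 12 GF libraries lay below its Control mean.

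Abcb1a (ENSMUSG00000040584, chromosome 5, 8660077 to 8748575, plus strand), one of the mouse genes for the drug efflux pump P-glycoprotein, was the one ABC transporter that passed. It lay at 29.4, 56.0 and 87.2 CPM in GF-AOMS, at 45.5, 66.0 and 138.8 CPM in GF-AOM, and at 116.5, 85.7, 365.1, 445.8, 264.7 and 283.7 CPM in Control replicates 1 to 6. Control replicate 2 was the only Control library inside the GF-AOMS range, and replicates 1 and 2 were both inside that of GF-AOM. The log2 difference was -2.17 (SE 0.38, edgeR adjusted p = 0.0304) for GF-AOMS and -1.79 (SE 0.38, adjusted p = 0.0792) for GF-AOM. Of its 50-base words 17% occur in other transcripts, chiefly Abcb1b and Abcb4.

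The efflux pump Abcg2, which exports urate and many drugs, lay at 19.4, 26.5 and 39.9 CPM in GF-AOMS, at 20.8, 22.3 and 34.05 CPM in GF-AOM and at 31.2, 48.5 and 96.7 CPM in Control. It gave log2 differences of -0.92 (SE 0.25, edgeR adjusted p = 0.0909) and -1.10 (SE 0.25, adjusted p = 0.0831), so neither passed. Abcc3, which exports glucuronides across the basolateral membrane, gave -0.62 (SE 0.22) and -0.68 (SE 0.22). The mitochondrial transporter Abcb10 gave -0.07 (SE 0.10) in GF-AOMS.

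GF-AOM alone against Control gave no member that passed edgeR's test, against 0.00918% of all genes. At an unadjusted p under 0.05 there were 38 members, 2 higher and 36 lower, against 15.7% of all genes (5.98% higher and 9.74% lower), and DESeq2 called 18 members, all lower, against 2.61% of all genes (1.97% lower and 0.633% higher). The median was -0.32 with 61 of 78 below 0, against a median of 0.00 and 50.5% below 0 over all genes. The members called by edgeR were 17 without Control replicate 2 (3.27% of all genes in the same fit) and 6 without Control replicate 1 (0.413%). With any other library left out, 0 members were called, against 0 to 0.0367% of all genes. The GF-AOM and GF-AOMS comparisons share the 6 Control libraries, so their resemblance is not independent evidence.

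**Figure D2:**
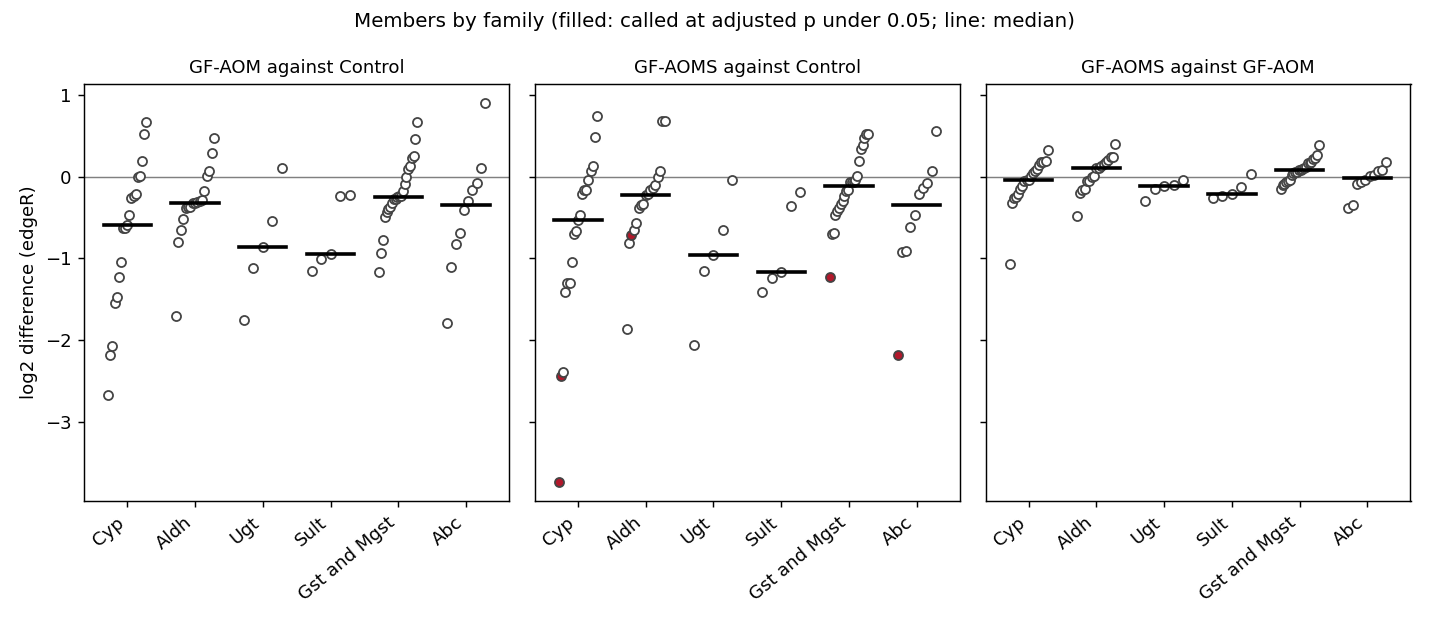
Log2 differences from edgeR for each of the 78 members (circles) by family in the 3 comparisons, with the family median as a line and the 5 called members filled. Both comparisons with Control run down to about the values of Cyp2c55 (-2.67 in GF-AOM and -3.73 in GF-AOMS), whereas between GF-AOMS and GF-AOM all members but Cyp2c55 lie between -0.49 and 0.39.

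Members with positive differences were fewer and none passed. In GF-AOM the smallest p among them belonged to Abcg3, at 0.90 (SE 0.35, edgeR adjusted p = 0.251), and in GF-AOMS to Gstm5, at 0.52 (SE 0.25, adjusted p = 0.314). Cyp4f18, a leukotriene oxidase, gave 0.74 (SE 0.38) and 0.67 (SE 0.38) in GF-AOMS and GF-AOM. Gstp3 gave 0.51 (SE 0.31) and 0.66 (SE 0.31), and Cyp2d34 gave 0.48 (SE 0.34) and 0.52 (SE 0.34), values that turned to -0.067 and -0.025 with a term for colon position described further on. Cyp2d34 was high in all of the libraries with a low TMM factor: 72.7 and 79.5 CPM in GF-AOMS replicates 1 and 2, 82.1 and 96.5 CPM in GF-AOM replicates 3 and 6, and 66.9 CPM in Control replicate 2. Its remaining libraries lay between 12.9 and 61.6 CPM. Abcg3 was likewise highest in GF-AOM replicate 6 at 18.2 CPM and GF-AOMS replicate 2 at 14.7 CPM. The part of library composition in these differences was not tested.

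GF-AOMS against GF-AOM addresses smoke under every reading of the labels. No member passed edgeR's test, and neither did any other gene (0%). At an unadjusted p under 0.05 there were 0 of 78 members, against 1.09% of all genes, and DESeq2 called 0 members, against 0.0275% of all genes. The estimate of spread was shared with Control, whose libraries were split, so the test may call too few genes between the GF groups. The members' median log2 difference was 0.0073, against 0.010 over all genes, and 37 of 78 lay below 0, against 46.4%. The number of members called was 0 whichever library was left out, and so was the number of all genes called.

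Within the smoke comparison the largest difference was that of Cyp2c55, at -1.06 (SE 0.60, edgeR adjusted p = 1.00), with all 6 GF-AOMS libraries below the GF-AOM mean of 230.0 CPM and overlapping ranges. Abcb1a gave -0.38 (SE 0.37), Cyp4b1 -0.26 (SE 0.53), Cyp3a13 -0.25 (SE 0.31), Gstk1 -0.06 (SE 0.25) and Aldh7a1 -0.06 (SE 0.16). The retinaldehyde dehydrogenase Aldh1a3 gave -0.49 (SE 0.31). On the positive side Aldh4a1, a proline breakdown enzyme, gave 0.24 (SE 0.12), Gstm7 0.26 (SE 0.15), Aldh3b2 0.23 (SE 0.18), the oxysterol hydroxylase Cyp39a1 0.20 (SE 0.13) and Gstt3 0.18 (SE 0.10). Cyp2c65 gave -0.33 (SE 0.55). Of the genes just given, a fall of 1 log2 unit lies within 2 SEs of the estimate for Cyp2c55, Cyp2c65, Cyp4b1, Abcb1a and Aldh1a3. The same holds for Aldh1a1 (-0.157, SE 0.426). Similar levels are thus not shown for these genes, and the lack of calls does not show them for other members either. Cyp1a1, Cyp1a2 and Cyp1b1, the classical P450 targets of the smoke-responsive receptor AHR, are not among the measured members and were not analysed here.

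**Figure D3:**
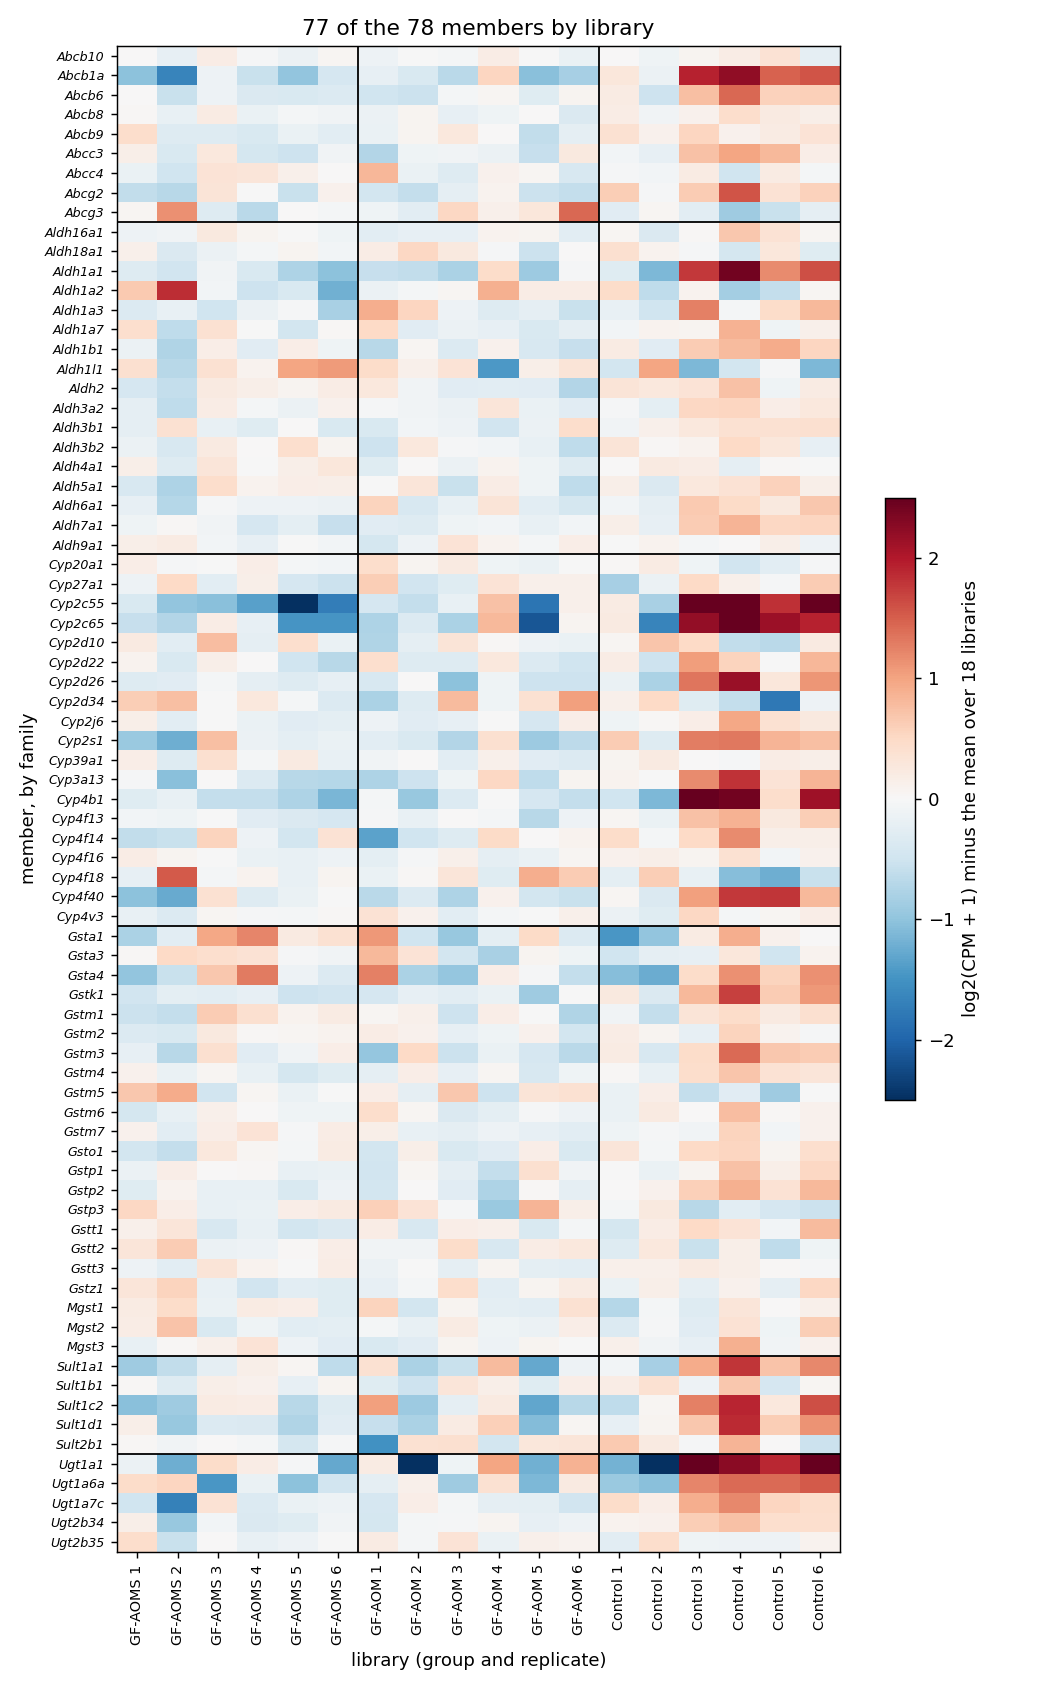
Of the 78 members, 77 by family (down the page) in the 18 libraries (across), coloured by log2(CPM + 1) minus the member's mean over all libraries. Control replicates 3 to 6 form the red block at the right in Cyp2c55, Cyp2c65, Cyp4b1, Abcb1a, Aldh1a1, Ugt1a1 and others, which Control replicates 1 and 2 do not share.

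The split within Control was examined member by member. In 19 of 78 members Control replicates 3 to 6 all lay above the other 14 libraries, against 2.87% of all genes, and in no member did all 4 lie below them, against 1.24%. The 19 were Cyp2c55, Cyp2c65, Cyp2d26, Cyp2s1, Cyp4b1, Cyp4f13, Cyp4f40, Aldh1a1, Aldh1b1, Aldh7a1, Ugt1a1, Ugt1a6a, Ugt2b34, Sult1d1, Gstk1, Gstm4, Gstp2, Abcb1a and Abcb6. They thus included all 5 genes called in GF-AOMS. In 11 of the 19, Control replicates 1 and 2 both lay within the range of the 12 GF libraries. Over all 78 members this held for 59, a share equal to the 75.6% of all genes. These libraries differ in Hoxa13 too, so group and colon position cannot be told apart within Control replicates 3 to 6.

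A term for colon position, set for the 4 libraries with Hoxa13 under 10 CPM, was then added to the model. It leaves Control replicates 1 and 2 to carry the Control group and would also absorb a true group difference shared by replicates 3 to 6. With the term no member passed in either comparison with Control, against 0% of all genes in GF-AOMS and 0.00918% in GF-AOM. At an unadjusted p under 0.05 there were 3 members in GF-AOMS (Gsta1 and Gsta4 higher, Abcb1a lower), against 3.21% of all genes, and 3 in GF-AOM (Gsta1 and Ugt1a1 higher, Abcg2 lower), against 3.16%. The members' median log2 difference became -0.07 in GF-AOMS and -0.05 in GF-AOM, and 61 and 58 of 78 members came closer to 0, against 61.8% of all genes in both comparisons. Cyp2c55 stood at -1.02 (SE 0.58) in GF-AOMS and 0.04 in GF-AOM, and Abcb1a at -0.81 and -0.43. Cyp4b1 changed sign to 0.28 and 0.54. Gstk1 stood at -0.35 and -0.29, Aldh7a1 at -0.21 and -0.15, and Cyp3a13 at -0.47 and -0.22. Between GF-AOMS and GF-AOM the fit with the term called no gene (0%). Cyp2c55 stood there at -1.06 with a smaller SE of 0.44 (edgeR unadjusted p = 0.0262).

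With the position term 29 of 78 members had positive differences in GF-AOMS and 32 in GF-AOM, against 55% and 52.3% of all genes; without it there were 16 and 17, against 51% and 49.5%. The sign changed in 21 and 27 members, against 32.1% and 29.4% of all genes. Of the members positive with the term, 3 picked after their values were seen are given here. Ugt1a1, which conjugates bilirubin, stood at 1.87 in GF-AOMS and 2.18 in GF-AOM, where the fit without the term gave -2.06 (SE 0.81) and -1.75 (SE 0.80). Its levels were 15.2 to 53.7 CPM in GF-AOMS, 3.46 to 77.3 CPM in GF-AOM, 16.5 and 1.87 CPM in Control replicates 1 and 2, and 145.4 to 262.4 CPM in Control replicates 3 to 6. Gsta1 stood at 1.76 in GF-AOMS and 1.39 in GF-AOM; it lay at 10.7 to 46.4 CPM in the GF-AOMS libraries and at 9.51 to 41.7 CPM in those of GF-AOM, against 6.38 and 9.25 CPM in Control replicates 1 and 2 and 19.4 to 36.9 CPM in replicates 3 to 6. The alpha-class Gsta4 stood at 1.44 and 1.27. None of these passed, and of Gsta1's 50-base words 89.7% occur in other transcripts, Gsta2 among them.

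**Figure D4:**
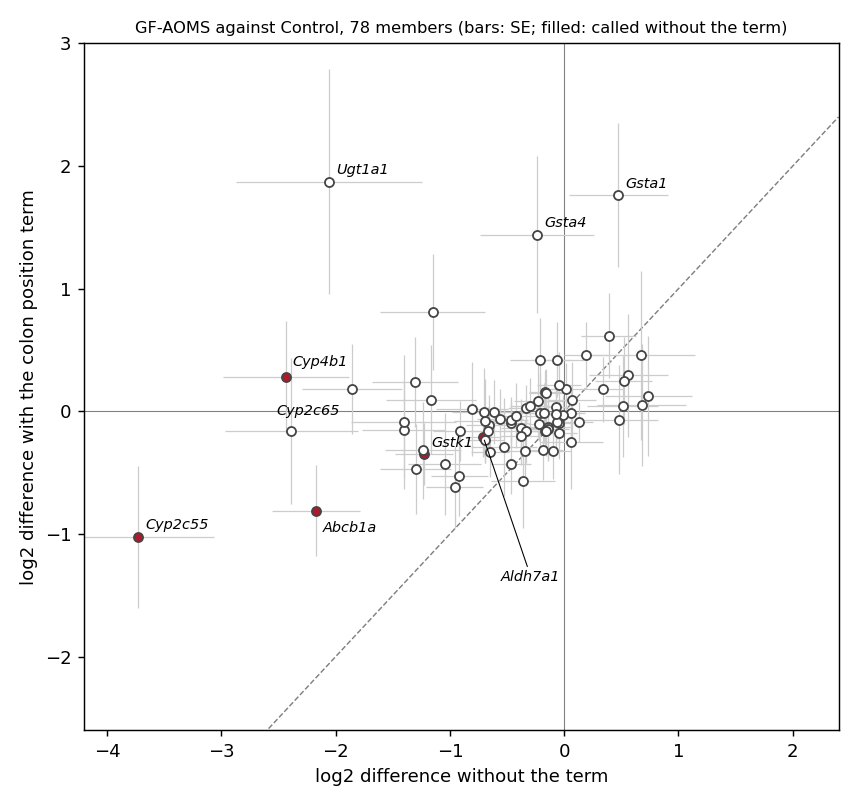
Log2 difference of GF-AOMS from Control for each member without (horizontal) and with (vertical) the colon position term, with SE bars; filled circles are the 5 members called without the term and the dashed line marks equal values. Most members lie nearer to 0 on the vertical axis, with Cyp2c55 at -1.02 and Abcb1a at -0.81 lowest, and Ugt1a1, Gsta1 and Gsta4 highest.

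Promoter windows are shown for 4 members that ran together against Control, Cyp2c55, Cyp2c65, Abcb1a and Gstk1. RefSeq (GRCm38.p6) gave windows from 250 bases before to 50 bases after the gene start for 66 of the 78 members. The 4 shown lie at chr19:39006769-39007068, chr19:39060756-39061055, chr5:8566841-8567140 and chr6:42245685-42245984, each on the plus strand. The RefSeq start of Abcb1a lies upstream of the deposited gene's start, so its window belongs to another transcript start than the one in the table. Capitals mark any match, on either strand, to the searched motifs AGGTCA (a nuclear receptor core), AGTTCA (found in sites of PXR and CAR), TGACNNNGC (the antioxidant response core bound by NRF2), GCGTG (the AHR core), CAAAGTCCA (an HNF4A site) and TATAAA (the TATA box).
Cyp2c55: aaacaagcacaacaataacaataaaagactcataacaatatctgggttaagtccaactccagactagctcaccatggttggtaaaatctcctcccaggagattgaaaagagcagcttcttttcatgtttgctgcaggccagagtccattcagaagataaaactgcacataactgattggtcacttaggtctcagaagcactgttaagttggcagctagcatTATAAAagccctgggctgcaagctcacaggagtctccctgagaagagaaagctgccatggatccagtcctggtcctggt
Cyp2c65: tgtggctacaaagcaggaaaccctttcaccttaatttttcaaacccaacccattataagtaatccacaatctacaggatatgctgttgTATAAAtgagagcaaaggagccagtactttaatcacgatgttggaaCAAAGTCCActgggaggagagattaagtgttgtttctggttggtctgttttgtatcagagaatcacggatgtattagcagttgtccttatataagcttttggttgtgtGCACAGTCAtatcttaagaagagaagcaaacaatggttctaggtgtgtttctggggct
Abcb1a: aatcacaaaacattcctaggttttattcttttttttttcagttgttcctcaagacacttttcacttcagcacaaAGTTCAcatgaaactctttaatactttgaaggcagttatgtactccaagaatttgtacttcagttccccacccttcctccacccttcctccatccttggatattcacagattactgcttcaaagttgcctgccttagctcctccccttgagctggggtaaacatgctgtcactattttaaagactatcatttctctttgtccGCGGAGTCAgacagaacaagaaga
Gstk1: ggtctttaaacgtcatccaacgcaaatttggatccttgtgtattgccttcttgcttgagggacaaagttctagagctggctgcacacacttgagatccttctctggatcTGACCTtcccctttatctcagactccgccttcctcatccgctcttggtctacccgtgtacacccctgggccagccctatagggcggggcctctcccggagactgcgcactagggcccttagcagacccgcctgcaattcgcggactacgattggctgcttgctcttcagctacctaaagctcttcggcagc

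In the Cyp2c55 window the one match was TATAAA at -29 to -24 from the start. Cyp2c65 had TATAAA at -162 to -157, CAAAGTCCA at -116 to -108 and TGACNNNGC on the minus strand at -8 to 1. Abcb1a had AGTTCA at -176 to -171 and TGACNNNGC on the minus strand at 27 to 35, and Gstk1 had AGGTCA on the minus strand at -141 to -136. No motif was shared by all 4 windows. Over the 85 member windows AGGTCA occurred in 12.9%, AGTTCA in 10.6%, TGACNNNGC in 15.3%, GCGTG in 28.2%, CAAAGTCCA in 2.35% and TATAAA in 15.3%. Over all 32851 windows the shares were 16.3%, 14%, 12.4%, 32.4%, 0.475% and 13.6% in the same order. CAAAGTCCA rested on 2 member windows.

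The receptors and partners of these enzymes were taken from lists chosen by function. Of 22 measured receptors and regulators edgeR called none in any comparison; at an unadjusted p under 0.05, 7 were lower in GF-AOMS (9.25% of all genes) and 10 in GF-AOM (9.74%) against Control and 0 differed between the GF groups (1.09%). DESeq2 called 2 lower in GF-AOMS (2.63% of all genes), and 0 in the other comparisons. Their median log2 difference was -0.37 in GF-AOMS and -0.38 in GF-AOM against Control and 0.02 between the GF groups. With the colon position term the medians against Control were 0.018 in GF-AOMS and 0.038 in GF-AOM. Differences above 0 then numbered 13 and 14 of 22, against 55% and 52.3% of all genes. Nr1i2, which encodes PXR, averaged 35.9 ± 6.65 CPM in GF-AOMS libraries, 34.95 ± 5.69 CPM in GF-AOM libraries and 47.0 ± 8.07 CPM in Control (SD, n = 6 each). Control replicates 1 and 2 were at 37.2 and 40.1 CPM and replicates 3 to 6 at 43.9 to 58.1 CPM. Ahr gave -0.25 (SE 0.14) and -0.05 (SE 0.14), and Nfe2l2, which encodes NRF2, gave -0.34 (SE 0.15) and -0.25 (SE 0.15). Of 9 electron donors of the P450s edgeR called none, with 2 lower at an unadjusted p under 0.05 in each comparison with Control, and DESeq2 called 2 lower in GF-AOMS and 0 in GF-AOM, against the same shares of all genes. Por, the reductase that serves the microsomal P450s, gave -0.45 (SE 0.13) and -0.43 (SE 0.13). The donors' median log2 difference from Control was -0.13 in GF-AOMS and -0.17 in GF-AOM, and -0.059 and -0.075 with the position term.

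Of 12 genes that supply cofactors for conjugation, 2 fell in GF-AOMS against Control (0.624% of all genes fell) and none was called in GF-AOM (0.00918% called). Ugdh, which makes UDP-glucuronic acid, lay at 71.2, 96.0 and 133 CPM in GF-AOMS and at 91.5, 459.1 and 731.4 CPM in Control (log2 difference -1.99, SE 0.37, edgeR adjusted p = 0.0304). Slc35d1, which carries that sugar nucleotide into the endoplasmic reticulum, gave -1.73 (SE 0.38, adjusted p = 0.0433). With the position term they stood at -0.28 and 0.00. Of 32 other measured phase I and II enzymes 3 fell in GF-AOMS (0.624% of all genes), all carboxylesterases: Ces2a at -2.80 (SE 0.47), Ces2c at -2.02 (SE 0.36) and Ces2e at -1.69 (SE 0.33), each with an edgeR adjusted p of 0.0304. With the term they stood at -1.03, -0.87 and -0.35.

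Some markers of cell types differed from Control as well. Of 11 measured absorptive colonocyte markers 2 fell in GF-AOMS against Control (0.624% of all genes), Car1 at -3.91 (SE 0.70, edgeR adjusted p = 0.0304) and Cdhr5 at -1.34 (SE 0.27, adjusted p = 0.0304). By sign alone, 8 of the 11 lay lower and 3 higher in GF-AOMS, and 7 lower and 4 higher in GF-AOM. Summed, the 11 came to 2384 to 3898 CPM in GF-AOMS, 1612 to 4136 CPM in GF-AOM and 4043 to 24793 CPM in Control, where replicates 3 to 6 held 8678 to 24793 CPM. Car1, which is also on the list of proximal colon genes, made up most of that excess, with 5335 to 19166 CPM in these 4 libraries, whereas Control replicates 1 and 2 had 688.7 and 727.7 CPM. Without it the other 10 summed to 2190.5 to 3152 CPM in GF-AOMS, 1475 to 3491 CPM in GF-AOM, 3315 to 4389 CPM in Control replicates 1 and 2 and 3246 to 5628 CPM in Control replicates 3 to 6. Of 6 measured enteroendocrine markers, 4 lay lower and 2 higher in GF-AOMS against Control, and edgeR called Chga and Chgb lower. The 6 summed to 136.2 to 369.4 CPM in GF-AOMS, 186.3 to 397.2 CPM in GF-AOM and 285.2 to 601.3 CPM in Control. Chga and Chgb both stood highest in Control replicates 3 to 6, from 69.7 CPM for Chga and 116.2 CPM for Chgb. Control replicate 1 came next, with 46.0 and 83.4 CPM. Insl5 ran the other way, with 1.89 to 4.41 CPM over Control replicates 3 to 6 and 18.8 CPM or more elsewhere. No marker of goblet cells (8 measured), smooth muscle (7), macrophages (8), endothelium (7), plasma cells (6), T cells (5) or fibroblasts (6) was called by edgeR in any comparison. At an unadjusted p under 0.05, 5 plasma cell markers were higher in GF-AOM against Control (5.98% of all genes), and no other of these lists had more than 3 in a comparison; DESeq2 called 1 macrophage marker higher and 1 endothelial marker lower in GF-AOMS against Control. Of the liver list only Ttr was measured, at a summed level of 4.02 to 9.58 CPM in GF-AOMS, 2.15 to 10.5 CPM in GF-AOM and 2.62 to 19.5 CPM in Control. No marker listed here was at 0 in any library except Hoxa13, which was at 0 in Control replicate 5. The part of colonocyte content in the members' differences was not tested.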

How the data were processed

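Per the labels' protocols, total colon RNA (RIN 7 or above) lost its ribosomal RNA and went into strand-specific libraries. The submitters' processing notes name featureCounts, DESeq2 and build GRCm39; no version or aligner is given in the sources used here. Per the file headers, the deposited read counts are whole numbers per gene, not normalized, and FPKM values for these genes were deposited beside them by the authors. Of 10890 gene IDs found in GENCODE M21 (GRCm38), 93.1% had both ends within 100 bases of it, so printed positions are those of GRCm38.

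The counts of all 18 libraries (6 per group) entered 1 fit in edgeR 4.0.16 under R 4.3.3 (TMM scaling, quasi-likelihood, 15 residual degrees of freedom, no covariate, two-sided, Benjamini-Hochberg over 10897 genes, threshold 0.05). A filter of FPKM 1 in 6 or more libraries left every gene in. CPM values use TMM-scaled library totals. On simulated counts for GF-AOM against Control over 10897 genes, the fit recovered 74 of 100 genes changed by 1 log2 unit and 98 of 100 changed by 2, with 4 false calls of 176. Each gene was drawn separately with the same mean share of counts in all Control libraries. The simulation thus lacks the split within Control and does not give the recovery or false calls in these data. Of 81 genes matching the names, Cyp51 and 2 pseudogenes were left out. Near-identical copies were sought as 50-base words shared between GENCODE M21 transcripts; 20 members shared more than 10%.

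Members named with values are the 5 marker genes, all called members, the 5 with the smallest p per comparison and direction and the 2 with the highest FPKM per family, 34 in all; others were chosen after their values were seen. Of the 78 members 1 enters the fits and counts but is not reported singly here. A listing of genes most like Cyp2c55 was planned and left out because the libraries fall into separate clusters. The members and lists were chosen with earlier results of these data known, as was the colon position term. Alternatives were DESeq2 1.42.0, limma 3.58.1 on log2(FPKM + 1) and log2(FPKM + 0.1), other scaling and filters, only the groups compared, a replicate block, position and length terms, each library left out, and, added after seeing the data, the 5 libraries with TMM factors under 0.9 left out.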

Additional observations from a re-analysis of the deposited data

Results flagged for a closer look

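Within a group of 6 libraries a value was singled out when its gap to the nearest other library exceeded 0.625 of the group's range (Dixon's 95% critical value). Of 102 groups of values (34 named genes in 3 groups) 9 held such a value, and chance gives about 1 in 20. GF-AOMS replicate 2 stood high in Abcg3 at 14.7 CPM and in Cyp4f18 at 31.6 CPM; this library has the largest share of ribosomal protein counts, 26.2%. GF-AOM replicate 6 stood high in Abcg3 at 18.2 CPM, GF-AOM replicate 1 in Gstm7 at 9.89 CPM, and GF-AOM replicate 4 low in Aldh1l1 at 9.57 CPM. Control replicate 2 stood high in Aldh1l1 at 55.5 CPM. Control replicate 4 stood high in Abcg2 at 96.7 CPM, in Gstm7 at 13.6 CPM and in Mgst3 at 621.2 CPM, and it also held the highest share of counts in members, 1.36%.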

How the results depend on the processing

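Genes and members called in GF-AOM against Control, 1 and 0 in the fit reported, became 284 and 18 with DESeq2, 132 and 7 without the libraries with TMM factors under 0.9, 2 and 0 with the replicate block, and 0 and 0 with limma at either pseudocount or with only those 2 groups. For GF-AOMS against Control, 80 and 5 became 375 and 19 with DESeq2, 277 and 12 without the libraries with low TMM factors, 33 and 4 with the replicate block, 19 and 1 with limma on log2(FPKM + 1), 20 and 1 with log2(FPKM + 0.1), 6 and 1 with the length slope, and 0 and 0 with only those 2 groups or with the position term. Members called were 3 with DESeq2's size factors in edgeR and 3 with FPKM of at least 5. The number of all genes called is not given for these 2 settings, so nothing particular to the members is read from them. Between GF-AOMS and GF-AOM, genes called were 3 with DESeq2, 2 with the length slope and 1 without the low-TMM libraries, and members called stayed at 0 in these. Leaving out each library gave 0 to 356 genes and 0 to 17 members in GF-AOM against Control, 0 to 493 and 0 to 21 in GF-AOMS against Control, and 0 between the GF groups, with medians of -0.40 to -0.28, -0.36 to -0.20 and -0.03 to 0.03. The position term moved the medians to -0.048 and -0.067. With the position term the sign changed in 27 of 78 members in GF-AOM and 21 in GF-AOMS against Control; among the marker genes, the called members and those with the smallest p of each comparison, these were Cyp2d34 (-0.025), Cyp2c55 (0.039) and Cyp4b1 (0.54) in GF-AOM and Cyp4b1 (0.28) in GF-AOMS against Control. Between the GF groups the sign reversed for Aldh7a1 without GF-AOMS replicate 6 (0.011, within a range of -0.115 to 0.011 over the libraries left out); the cause was not tested. Among the 5 called members, Cyp2c55 passed in 19 of 30 settings of GF-AOMS against Control and had an adjusted p of 1.82e-07 to 1.00 over all. Abcb1a passed in 18 of 30, Gstk1 in 12 of 30, and Cyp4b1 and Aldh7a1 in 6 of 29 each. These settings include the fits without single GF-AOM libraries, which enter this comparison only through the shared spread. Deviations of same-numbered libraries from their group means had correlations of -0.62 to 0.52. The main fit did not pair these libraries, and such mixed values do not settle whether the numbers pair them. Depth was at least about 48954000 counts per library, and the spread between libraries, mainly in Control, set the SEs.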
